A study of Rattus norvegicus with 27 samples.

Results

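The genes described here encode potassium channel subunits, taken as every row of the count table whose rat symbol begins with Kcn and which had at least 1 read in any library. There were 89 such genes among 36865 rows, of which 15078 had a read. A further 9 rows with a Kcn symbol were listed at 0 in every library (among them Kcne1, Kcnk7, Kcnu1, Kcnd2l1, Kcnk12 in 2 rows, and the pseudogenes Kcnk16-ps1 and Kcnk6-ps1). Since Sst, Cntnap2, Adam22 and Cux1, which cortical neurons are known to use, were also listed at 0, such a value was read as no information on the gene. The 89 genes were grouped by symbol into Kcna (8 genes), Kcnb (2), Kcnc (4), Kcnd (3), Kcnh (8), Kcnj (15), Kcnk (12), Kcnn (4), Kcnq (4) and other Kcn genes (29).

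All samples belong to 1 group, 27 male Wistar rats whose bilateral medial prefrontal cortex (mPFC) was dissected and homogenized in a resting state, with 1 library of polyA RNA per rat. The rats had passed a battery of anxiety tests, and the study picked them from the whole range of their anxiety scores to relate gene expression to trait anxiety; no agent, allele or untested control group is part of the series, and the label "Learned helplessness" stands on every sample. Anxiety scores per rat were not used here, so the comparisons below are among the 27 libraries. Total counts ran from 4907255 to 12771309 with a median of 8168801. They fell into a set of 16 libraries numbered up to 31 (4907255 to 8568317 reads) and a set of 11 numbered from 32 (9404220 to 12771309 reads), a split by library number and depth whose origin the labels do not give. The methods name 2 cohorts of male Wistar rats, and which rat belonged to which was not used here.

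Potassium channels let potassium ions cross the membrane down their gradient and so set the resting potential, repolarize the action potential and limit repetitive firing. Pore-forming subunits fall into voltage-gated (Kcna to Kcnd, Kcnh, Kcnq), inward-rectifying (Kcnj), tandem-pore leak (Kcnk) and calcium- or sodium-activated (Kcnn, Kcnma1, Kcnt) classes, and auxiliary subunits change their traffic and gating. In cortex, neurons use most of these classes, while a few inward rectifiers are known from astrocytes and mural cells of vessels.

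Levels are given as normalized counts, the reads of a gene divided by the size factor of its library. They are not scaled to transcript length, so no order of levels between genes is drawn from them. Reads on the 89 genes made up 0.376% of all reads. A mean of at least 10 reads per library was reached by 73 genes, and the other 16 lay under it: Kcna7, Kcna10, Kcnh8, Kcnj1, Kcnj13, Kcnj15, Kcnk5, Kcnk6, Kcnk16, Kcnk18, Kcnq1, Kcne3, Kcne4, Kcnv2, Kcnmb1 and Kcnmb3. Of those 16, Kcnj13 reached 38 reads in 1 library, Kcnk6 reached 18, and none of the others exceeded 13. A count of 3 reads, the limit that a 0 allows, corresponds to 2.01 to 5.19 normalized counts depending on the library.

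Library 3 stood apart from the rest. It held the lowest value of 33 of the 73 genes (45.2%), while it held the lowest value of 19.9% of all genes with a mean of at least 10 reads. Its summed level of 10 oligodendrocyte markers was 64303 normalized counts (at most 44244 elsewhere), that of the excitatory cortical neuron markers was 14295 (at least 16681 elsewhere), and reads on ribosomal protein genes made up 1.69% (0.918% to 1.37% elsewhere). Library 12 held the highest value of 20 of the 73 genes (27.4%, against 9.30% of all genes). Libraries 12 and 20 carried 19987 and 16900 normalized counts of the 18S ribosomal RNA gene Rn18s, and the other 25 carried 853 to 5243. Several counts are also given without library 3 or without libraries 12 and 20, and several of the spreads without library 3 only.

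**Figure D1:**
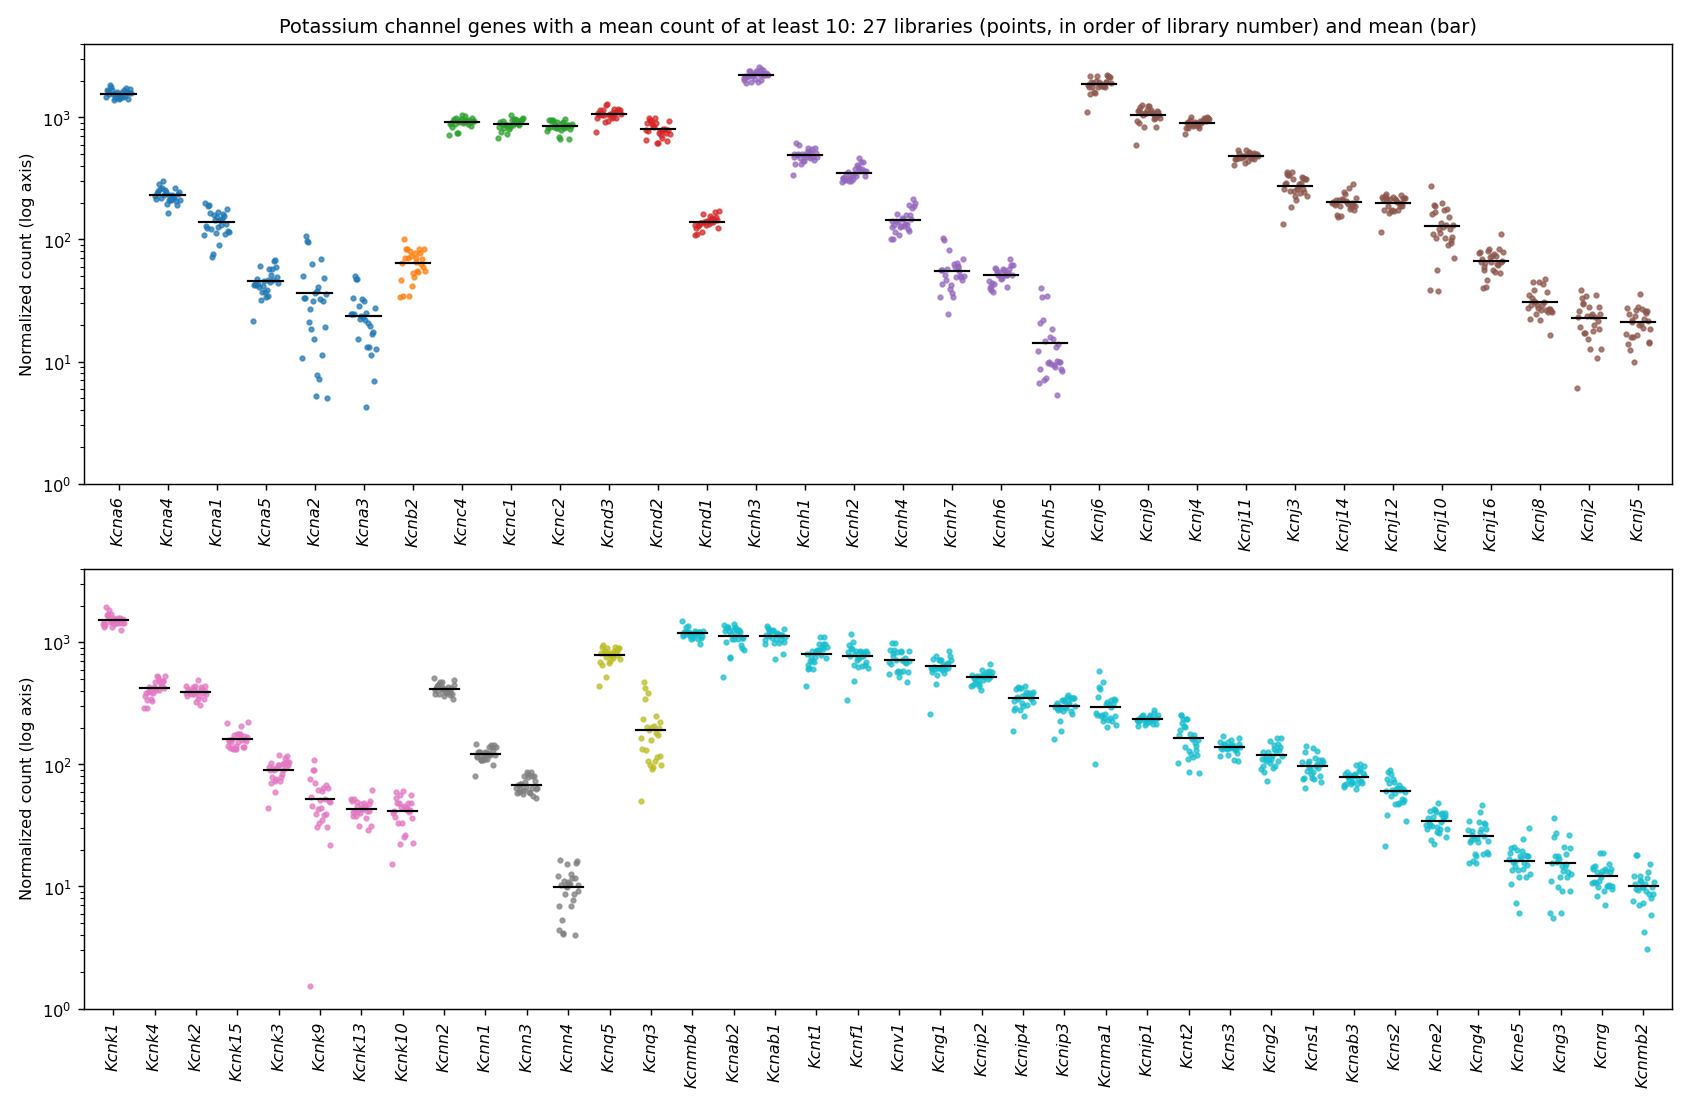
Normalized counts (log axis) of 70 genes with a mean of at least 10 reads, ordered by family and mean; points are the 27 libraries in order of library number and bars are means. Kcna2, Kcna3, Kcnh5, Kcnj10, Kcnk9 and Kcnq3 spread widest, and the single low point of Kcnk9 (1.53) belongs to library 3.

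Of the 73 genes, 64 (87.7%) varied between libraries by more than counting noise. Their dispersion was tested by chi-square against Poisson sampling, at an adjusted p under 0.05. With 1 library per rat, spread between rats cannot be told apart from spread between dissections or libraries. Over all genes the share was 89.8%, so the channel genes did not stand out by this measure. The SD of log2(normalized count + 1) over the 27 libraries had a median of 0.27 for the channel genes and of 0.19 for all 11730 genes, and 51 of the 73 lay above the latter. Without library 3 these medians were 0.22 and 0.18, and 50 of the 73 lay above the latter. The biological coefficient of variation estimated by edgeR, which takes counting noise into account, exceeded the trend for genes of the same level in 30 of the 68 genes that had an estimate (44.1%), and in 25.2% of all 11292 genes with one, given as a description. The 9 genes that did not pass were Kcnh6, Kcnj5, Kcnk13, Kcnn4, Kcnip1, Kcne2, Kcne5, Kcnrg and Kcnmb2. Without library 3, 63 genes passed, and without libraries 12 and 20, 65 did.

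**Figure D2:**
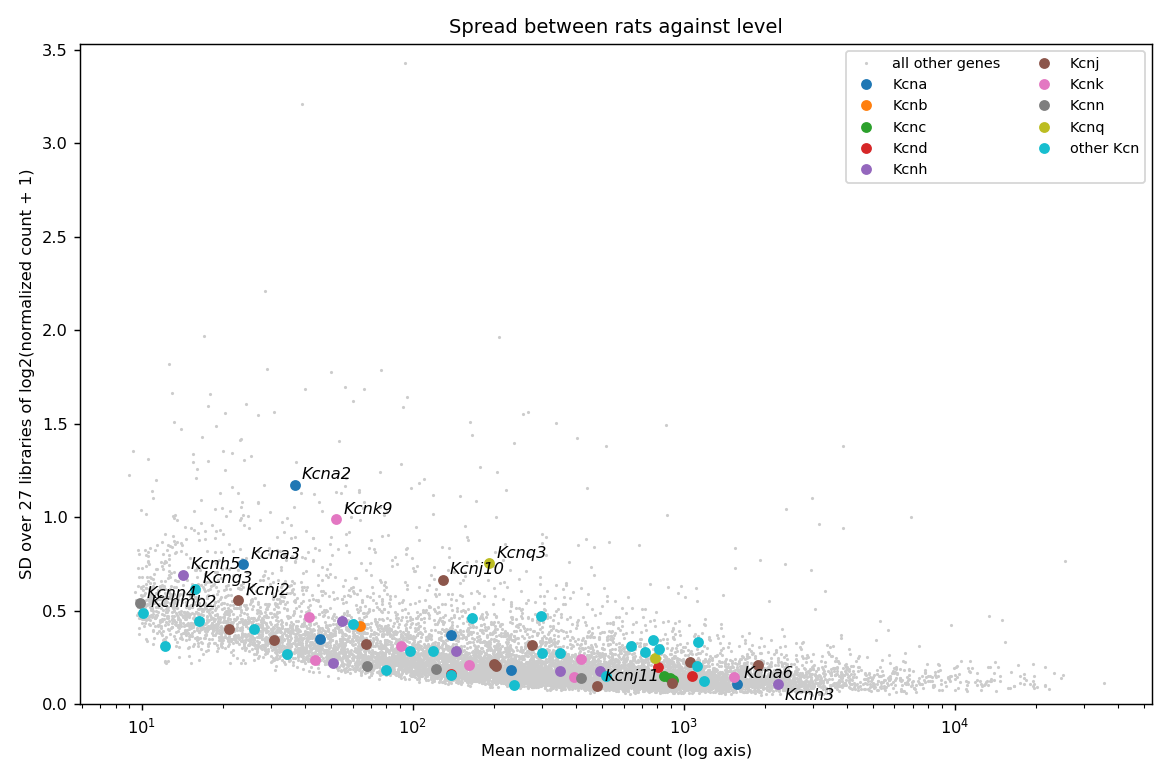
SD over 27 libraries of log2(normalized count + 1) against the mean normalized count (log axis), with 70 channel genes colored by family and other genes in grey. Kcna2 (1.17) and Kcnk9 (0.99, but 0.53 without library 3) lie above the other channel genes drawn, and Kcnj11 (0.10), Kcna6 (0.11) and Kcnh3 (0.11) lie at the lower edge.

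In the Kcna family, whose tetramers carry low-threshold currents along axons, all 6 tested genes varied beyond counting. Kcna6 was the steadiest, with 1387 normalized counts in the lowest library, a median of 1566 and 1840 in the highest. Kcna4, an inactivating A-type subunit, ran from 164 through a median of 231 to 301. Kcna1, a partner of Kcna2 in axonal channels, ran from 71.3 through 135 to 199. Kcna5 ran from 21.4 in library 3 through 43.8 to 67.8, with an SD of 0.35 on the log2 scale and of 0.29 without library 3. Kcna3, known also from lymphocytes and microglia, ran from 4.21 through 23 to 49.9.

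Kcna2, which the study lists, varied most of all 73 genes. Its lowest value was 5.05 normalized counts, the median 32.5 and the highest 107, with a mean of 36.7 ± 28.2 (SD, n = 27). Its SD on the log2 scale was 1.17, against 0.11 to 0.75 for the other 5 Kcna genes. Counting noise made up 4.73% of its variance, and its biological coefficient of variation was 0.69 where the trend for its level was 0.23. Libraries 12, 13 and 15 were highest, at 107, 97.5 and 95.4, followed by libraries 42 (69.7) and 20 (63.5). There were 6 libraries below 12 normalized counts, among them 28 (5.25), 35 (7.19) and 54 (5.05), so high and low values occurred in both library sets.

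Both Kcnb genes, the delayed rectifiers of neuronal somata, varied beyond counting. Kcnb2 ran from 33.6 in library 3 through a median of 65.9 to 101. The 4 Kcnc genes, whose fast channels allow high firing rates, all varied beyond counting. Kcnc4 was the steadiest of them, from 714 through a median of 929 to 1042 and with an SD of 0.13 on the log2 scale. The 3 Kcnd genes carry the transient A-type current of dendrites. Kcnd2 ranged from 615 to 998 around a median of 786, Kcnd3 from 760 to 1293 around 1062, and all 3 passed the test for spread.

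In the Kcnh family of ether-a-go-go channels, 6 of 7 tested genes varied beyond counting. Kcnh3 was the steadiest, from 1933 through a median of 2219 to 2604 normalized counts. Kcnh5 was the most variable, with a lowest value of 5.36, a median of 9.97 and a highest value of 39.7, which was in library 12. Its spread of 0.69 on the log2 scale was above that of Kcnh7 (24.6 to 103, median 51.4), whose SD was 0.45.

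Among inward rectifiers, 11 of the 12 tested Kcnj genes varied beyond counting. Kcnj11, the pore of the neuronal ATP-sensitive channel, had the smallest spread of the 73 genes, from 407 through a median of 480 to 541. Of the G protein-gated subunits, Kcnj6 ran from 1098 through 1891 to 2234, Kcnj9 from 593 through 1079 to 1264 and Kcnj3 from 133 through 284 to 356. All of these minima were in library 3, and without it their SDs were 0.14, 0.16 and 0.25 instead of 0.21, 0.22 and 0.32. Kcnj4, a strong rectifier that the study lists, ranged from 732 to 1012 around a median of 916. Kcnj10, the main inward rectifier of astrocytes, was the most variable, with a lowest value of 38.1, a median of 123 and a highest of 275. Its partner in glia, Kcnj16, spread less (39.7 to 111, median 65.9), as did Kcnj8, known from pericytes (16.5 to 47.7, median 28.8).

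Of the tandem-pore leak channels, 7 of the 8 tested Kcnk genes varied beyond counting. Kcnk1, which the study lists, was the steadiest, from 1260 through a median of 1501 to 1948 normalized counts. Of the mechanosensitive subunits, Kcnk2 ran from 307 to 490 (median 389), Kcnk4 from 287 to 529 (median 423) and Kcnk10 from 15.3 to 60.6 (median 42.6). Kcnk3, an acid-sensitive channel and the closest relative of Kcnk9, ran from 44.3 to 119 around 94.3. Kcnk15 ranged from 133 to 223 (median 157) and Kcnk13 from 28.8 to 61.5 (median 43.3).

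Kcnk9, an acid-sensitive leak channel that the study also lists, was the most variable Kcnk gene. Its lowest value was 1.53 normalized counts, the median 49.8 and the highest 108, with a mean of 52.3 ± 22.7 (SD, n = 27). The low value was library 3 alone, since the next lowest was 21.9. Its SD on the log2 scale was 0.99 with library 3 and 0.53 without it, and the other 7 Kcnk genes had SDs of 0.14 to 0.47 over all libraries. Highest were libraries 13 (108), 12 (90.8) and 15 (90.1), the same 3 libraries as for Kcna2.

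The Kcnn genes encode calcium-activated channels that follow bursts of spikes with a slow hyperpolarization, and 3 of 4 varied beyond counting. Kcnn2 ran from 346 through a median of 415 to 509, and Kcnn4, the most variable by SD, from 4.02 through 10.2 to 16.5, which was not beyond counting noise (adjusted p = 0.080). All 3 tested Kcnq genes, which carry the M-current that dampens excitability, varied beyond counting and above the trend for their level. Kcnq3 ran from 50.5 in library 3 through 173 to 475 normalized counts, and its lowest value without library 3 was 91.4. Kcnq5 was the steadiest, from 443 through 811 to 958.

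Among the other 24 tested genes, 19 varied beyond counting. The channel-binding protein gene Kcnip1 was the steadiest (207 to 282, median 237) and Kcng3, a silent subunit that modifies Kcnb channels, the most variable (5.49 to 36.3, median 14.7). Kcnmb4, the neuronal auxiliary subunit of the large-conductance channel, ran from 970 through 1183 to 1506. The pore of that channel, Kcnma1, spread more, from 101 in library 3 through 266 to 580 in library 12. Kcns2, a silent subunit that the study lists, ran from 21.4 in library 3 through 61.5 to 90.1. Without library 3 the log2 SD of Kcnma1 was 0.38 instead of 0.47 and that of Kcns2 was 0.33 instead of 0.43.

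**Figure D3:**
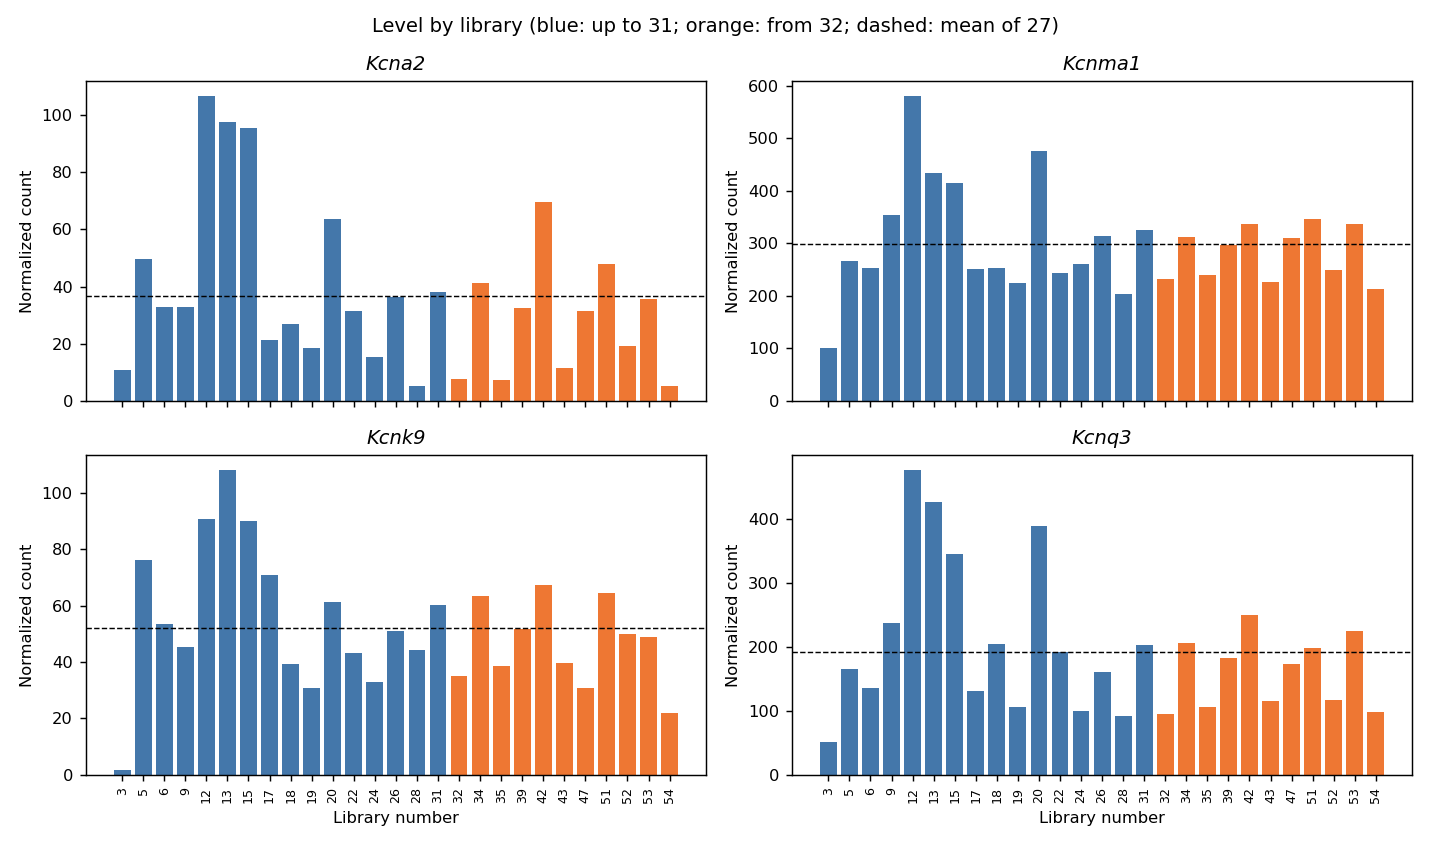
Normalized counts of Kcna2, Kcnma1, Kcnk9 and Kcnq3 in each library, ordered by library number, with the mean of 27 as a dashed line. Libraries 12, 13 and 15 are high for all 4 genes, and library 3 is the lowest for Kcnma1, Kcnk9 and Kcnq3 but not for Kcna2.

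Kcna2 was next set against its family across the 27 rats. Relations were measured on normalized counts with Spearman's rho and Pearson's r on log2 values, with two-sided permutation p-values from 100000 permutations adjusted over all 11729 other genes. Kcna1 was positively related to Kcna2 (rho = 0.66, p = 0.00035, adjusted p = 0.0081; r = 0.53, p = 0.0048, adjusted p = 0.042). With the 2 libraries farthest from the median of Kcna2 left out, r was 0.56, and rho was 0.84 in the set up to 31 and 0.40 in the set from 32. Kcna3 also passed (rho = 0.53, p = 0.0049, adjusted p = 0.046; r = 0.57, p = 0.0016, adjusted p = 0.021), with r = 0.61 without the 2 farthest libraries and rho of 0.68 and 0.46 within the sets. Thus 2 of 5 Kcna genes passed, where 7.53% of all genes were positively related to Kcna2, and 1 of 5 passed without libraries 12 and 20. Kcna6 (rho = 0.40, adjusted p = 0.16), Kcna4 (0.13, adjusted p = 0.71) and Kcna5 (0.13, adjusted p = 0.71) did not.

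Kcnk9 was related to 1 of 7 Kcnk genes by Spearman's rho (14.3%), near the 10.1% of all genes positively related to it. Kcnk10 passed (rho = 0.63, p = 0.00060, adjusted p = 0.0090; r = 0.76, permutation p = 1e-05, the smallest that these permutations can give, adjusted p = 0.00026), with r = 0.56 without the 2 libraries farthest from the median of Kcnk9, and rho of 0.64 in the set up to 31 and 0.80 in the set from 32. Its closest relative Kcnk3 gave a rho of 0.11 and an adjusted p of 0.74. For Kcnk15, r was -0.59 (adjusted p = 0.0088) but rho was -0.41 (adjusted p = 0.14), and r was -0.27 without the 2 farthest libraries, one of them library 3, so that relation rests on those libraries. Values of rho were 0.28 for Kcnk1, -0.13 for Kcnk4, -0.35 for Kcnk2 and -0.22 for Kcnk13, none of which passed.

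Across families, Kcna2 and Kcnk9 varied together (rho = 0.84, adjusted p = 0.00057 over the genes set against Kcna2; r = 0.60, adjusted p = 0.0026), with r = 0.62 without the 2 libraries farthest from the median of Kcna2 and rho of 0.85 and 0.86 within the sets. Of all 72 other channel genes, 12 (16.7%) were positively related to Kcna2, beside the 7.53% of all genes, and 0 were negatively related by Spearman's rho, where 3.69% of all genes were. The 12 were Kcna1, Kcna3, Kcnj2, Kcnj3, Kcnj10, Kcnk9, Kcnk10, Kcnma1, Kcnq3, Kcnq5, Kcns2 and Kcnt2. The largest rho was that of Kcnma1 (0.91), followed by Kcnq3 (0.89), and within the 2 sets these were 0.90 and 0.94 for Kcnma1 and 0.89 and 0.94 for Kcnq3. Without libraries 12 and 20, 7 genes passed, and without library 3, 10, and the share of all genes is not given for these settings. The median rho with Kcna2 was then 0.13 and 0.14 for the channel genes, and -0.04 and -0.03 for all genes. With Kcnk9, 17 of 72 (23.6%) were positively related, against 10.1% of all genes, and 0 negatively, against 4.90%. They included Kcns2 (rho = 0.78), Kcna1 (0.77), Kcnj2 (0.76), Kcnq3 (0.71) and Kcnq5 (0.65). Without library 3, 14 passed, and 14 also passed without libraries 12 and 20, again without a share of all genes. The median rho with Kcnk9 was 0.19 for the channel genes in both settings, and -0.04 and -0.05 for all genes. Kcna2 had a rho of -0.12 with total count, 0.16 with Rn18s and -0.28 with the share of reads on ribosomal protein genes, and Kcnk9 of -0.02, -0.10 and -0.37, given as a description.

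The genes of the whole table most like Kcna2 by Spearman's rho over 27 libraries were Ppp1r9a (neurabin, 0.97), Mib1 (a ubiquitin ligase, 0.97), Sesn3 (a sestrin, 0.95), Tnr (tenascin-R, 0.94) and Trip11 (a Golgi protein, 0.93). Within the library sets each of these stayed at 0.918 or above. Those most like Kcnk9 were the zinc finger gene Zfp483 (0.93), the histone methyltransferase gene Nsd1 (0.92), the postsynaptic scaffold gene Tanc2 (0.92), Strn (striatin, 0.91) and the nuclear receptor gene Nr2c2 (0.91). Within the sets these lay between 0.88 and 0.97, except for Strn, at 0.78 in the set from 32. None of these 10 is a channel gene, and they were chosen for this likeness, so no test applies.

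The promoters of Kcna2 and Kcnma1, which had the largest rho among the pairs of Kcna2 or Kcnk9 with another channel gene, are shown as the 250 bases before each start in RefSeq on GRCr8, both on the plus strand, at chr2:197393280-197393529 and chr15:351675-351924. Capitals mark the letters GGGCGG or their reverse complement, the core of a GC box.
Kcna2: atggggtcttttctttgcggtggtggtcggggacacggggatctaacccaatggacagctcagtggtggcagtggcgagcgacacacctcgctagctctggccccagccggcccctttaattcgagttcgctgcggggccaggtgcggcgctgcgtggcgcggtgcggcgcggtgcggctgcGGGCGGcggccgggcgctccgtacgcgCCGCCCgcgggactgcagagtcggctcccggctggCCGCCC
Kcnma1: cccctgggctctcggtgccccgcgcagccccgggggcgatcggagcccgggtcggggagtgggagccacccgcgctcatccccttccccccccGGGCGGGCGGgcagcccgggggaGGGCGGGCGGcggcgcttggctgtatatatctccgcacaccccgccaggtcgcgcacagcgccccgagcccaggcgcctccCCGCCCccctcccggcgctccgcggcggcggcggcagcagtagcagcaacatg
The Kcna2 stretch held 3 such matches, 1 of them on the plus strand, and 72.4% of its bases were G or C. The Kcnma1 stretch held 5, 4 of them on the plus strand, and 79.6% were G or C. RefSeq gave 67 promoters for 61 of the 89 genes. On either strand GGGCGG occurred in 49.3% of them and in 30.5% of all 33469 promoters, TATAAA in 2.99% and 12.9%, and CCAAT in 25.4% and 34.02%. The median share of G and C was 59.6% for channel genes and 51.2% for all. These matches are letters in a window and no evidence of binding.

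Between the library sets, 11 of the 73 channel genes were higher in libraries from 32 than in those up to 31 and 2 were lower, by edgeR's quasi-likelihood test at an adjusted p under 0.05. Over all 11716 genes tested 8.85% were higher and 9.18% lower, and the median log2 change was 0.04 for the channel genes and -0.0006 for all. The sets also differ in depth, so neither can be told apart from whatever else separates them. Without library 3, 9 were higher and 2 lower and the median of the channel genes was 0.008, and without libraries 12 and 20, 8 and 1.

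Kcna3 had the largest change. It ran from 15.2 through a median of 24.8 to 49.9 normalized counts in libraries up to 31 and from 4.21 through 13.2 to 27.6 in those from 32, so the sets overlapped, and its log2 change was -1.0 ± 0.21 (SE, edgeR adjusted p = 0.0014). Kcnt2, a sodium-activated channel, was also lower (medians 197 and 141, log2 change -0.41 ± 0.15, edgeR adjusted p = 0.049), but this call was lost without a filter (0.062) and without libraries 12 and 20 (0.106), and it held in 8 of the 27 fits that left out 1 library. Kcnt1, the other sodium-activated channel, rose from a median of 734 to 921 (log2 change 0.36 ± 0.08, edgeR adjusted p = 0.0020). Kcna5 had medians of 41.1 and 51.1 (0.41 ± 0.10), Kcnh4 of 130 and 160 (0.34 ± 0.09), Kcnk4 of 388 and 481 (0.32 ± 0.06), Kcng2 of 109 and 135 (0.30 ± 0.09) and Kcnh2 of 316 and 384 (0.27 ± 0.05), each with its log2 change and SE. Kcnd1, Kcnip2, Kcnj4 and Kcnc1 rose by log2 changes of 0.13 to 0.17. With 1 library left out at a time, the call of Kcnj4 held in 27 of 27 fits, that of Kcnip2 in 25, that of Kcnd1 in 17 and that of Kcnc1 in 9, and those of Kcnip2, Kcnd1 and Kcnc1 were lost without libraries 12 and 20. The calls of Kcnd1 and Kcnc1 were also lost without library 3, and that of Kcnc1 with DESeq2 size factors. The values of the 2 sets overlapped for all 13 genes. Kcna2 had a log2 change of -0.61 ± 0.39 (edgeR adjusted p = 0.30) and Kcnk9 one of -0.28 ± 0.24 (0.47), and neither was called. Of the marker lists, 2 of 10 general neuron genes, 1 of 9 excitatory neuron genes and 1 of 9 interneuron genes were higher from 32, and 1 immediate early gene was higher and 2 were lower. Of the oligodendrocyte, astrocyte, vascular, meningeal fibroblast, striatal projection neuron and microglia genes edgeR called 0. At an unadjusted p under 0.05 were 3 astrocyte, 1 vascular, 4 striatal and 2 microglia genes. With the oligodendrocyte and meningeal fibroblast scores (defined below) added to the fit, the same 13 channel genes were called, 11 higher and 2 lower. They were 17.3% of the 75 tested, against 21.2% of all genes. The part of the other lists in these changes was not tested. Of 30 genes for known partners of potassium channels, 25 were tested, and 4 (Abcc8, Lgi3, Lingo1 and Ank3) were higher and 0 lower by edgeR, with 5 at an unadjusted p under 0.05.

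**Figure D4:**
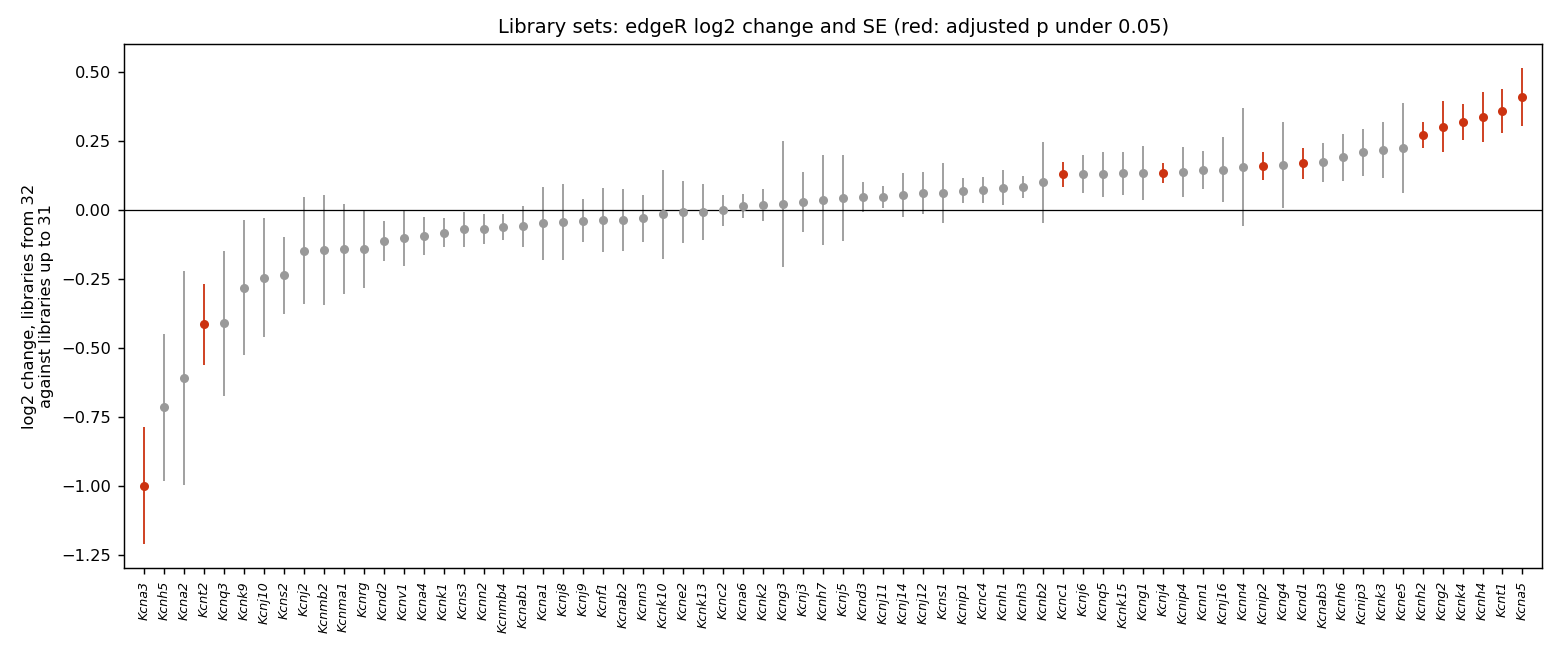
Log2 change of 70 genes between libraries from 32 (n = 11) and up to 31 (n = 16), as estimated by edgeR, in increasing order. Error bars are SEs derived from its F statistic, and red marks an adjusted p under 0.05. Kcna3 lies at -1.0 and Kcna5 at 0.41, while Kcna2 has a wide error and is not called.

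The channel genes were then set against scores of 6 marker lists, each the mean of its genes after their log2 values were standardized, itself scaled to an SD of 1, for oligodendrocytes, astrocytes, vessels, meningeal fibroblasts, GABAergic interneurons and immediate early genes. Changes are log2 changes per SD of the score by edgeR. In homogenized tissue, fewer cells of a type and less RNA per cell cannot be told apart.

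Along the astrocyte score 1 of 75 tested channel genes rose and 1 fell, where 1.30% of all genes rose and 0.0831% fell. Kcnj10 rose by 0.37 ± 0.09 per SD (SE, edgeR adjusted p = 0.020), and Kcnh6 changed by -0.17 ± 0.04 (edgeR adjusted p = 0.0096). Both calls held in all 6 alternatives, but the spread of Kcnh6 did not exceed counting noise (adjusted p = 0.21, chi-square dispersion test). Library 5, which had the highest astrocyte score and the highest summed level of astrocyte markers, held the highest value of Kcnj10 (275), but library 3, whose marker sum was the next highest (35614), had a value of 38.2, close to the lowest. Kcnj16 changed by -0.02 ± 0.06 (edgeR adjusted p = 0.92) and Kcnj8 by 0.16 ± 0.06 (edgeR adjusted p = 0.26). The summed level of the 10 astrocyte markers ran from 23041 to 36183 normalized counts. Along the same score 3 of 9 microglia markers rose and all 9 had an unadjusted p under 0.05, and 0 of 10 oligodendrocyte markers were called by edgeR, with 7 at an unadjusted p under 0.05. Their part in the changes of Kcnj10 and Kcnh6 was not tested.

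Along the meningeal fibroblast score Kcnj13, an inward rectifier known from choroid plexus, rose by 1.40 ± 0.13 per SD, and it was the 1 channel gene of 74 to be called, where 2.61% of all genes rose. Its reads were few, 0 to 38 per library with a median of 6. The highest values were 30.7 normalized counts in library 24 and 26.7 in library 32, and libraries 13, 26 and 31 were at 0. The summed level of the 10 fibroblast markers was lowest in library 31 (269) and highest in library 24 (4367). Of 6 choroid plexus markers, 1 reached a mean of 10 reads, Folr1 was listed at 0, and their sum ran from 7.65 to 329. The 1 that could be tested, Aqp1, also rose along this score, by 1.51 per SD, and 1 of 10 vascular and 1 of 10 astrocyte markers rose. Their part in the change of Kcnj13 was not tested. The span of Kcnj13 lies within that of Gigyf2 in RefSeq, so reads on it may belong to the latter where strand was not used. The call held in all 6 alternatives.

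Along the oligodendrocyte score 0 of 75 channel genes rose, where 1.26% of all genes did, and 1 fell, where 0.176% of all did. The gene that fell was Kcnj9 (-0.13 ± 0.03 per SD, edgeR adjusted p = 0.045), and the change was -0.07 with an adjusted p of 0.34 without library 3, whose oligodendrocyte sum was the highest. Besides the 10 oligodendrocyte markers, which rose by construction of the score, 1 of 9 excitatory neuron markers rose, 1 of 10 striatal projection neuron markers rose and 1 fell. Of the 10 astrocyte and 10 meningeal fibroblast markers edgeR called 0, with 4 of each at an unadjusted p under 0.05 and a median log2 change of -0.38 for the latter. Their part in the change of Kcnj9 was not tested. For the vascular score edgeR called 0 of 74 channel genes, with 4 at an unadjusted p under 0.05 and 0 called by DESeq2, where 0.797% of all genes were called. Kcnj8 changed by 0.17 ± 0.06 per SD of that score (edgeR adjusted p = 0.34). The immediate early gene score gave 0 of 74 by edgeR and by DESeq2, with 1 at an unadjusted p under 0.05, and 0.134% of all genes were called.

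Along the GABAergic interneuron score 17 of 75 channel genes rose and 0 fell, where 4.98% of all genes rose and 7.07% fell, but this rested on library 3. That library had a score of -3.26, and the next lowest was -1.88 in library 24. Without it edgeR called 0 of the 75 channel genes and 0 of all 12034 genes, with 12 and 1070 at an unadjusted p under 0.05. With all libraries, DESeq2 called 20 of 89 channel genes (22.5%), against 11.3% of all genes. The slopes of the 17 genes were all smaller and all still positive without library 3. Those with the smallest p were Kcnq5 (0.16 ± 0.04 per SD, edgeR adjusted p = 0.0072), Kcnd3, Kcnc1, Kcnj12 and Kcnma1 (0.29 ± 0.08), and without library 3 the slopes of Kcnq5 and Kcnma1 were 0.09 and 0.16. Kcnk9 was among the 17 (0.41 ± 0.13 per SD, edgeR adjusted p = 0.043) and had a slope of 0.18 without library 3 (adjusted p = 0.64). For Kcna2 the slope was 0.39 ± 0.22 with all libraries (edgeR adjusted p = 0.26). The summed level of the interneuron markers ran from 5036 in library 3 to 6646, with Sst listed at 0, and 7 of 25 partner genes rose with the score by edgeR. Of the 9 tested interneuron markers, which make up the score, edgeR called only 4 higher, and 8 had a positive slope. The oligodendrocyte score had all 10 of its own markers called. Markers of other cells moved along the interneuron score too. Of these, 4 of 10 general neuron and 2 of 9 excitatory neuron markers rose, while 2 of 10 oligodendrocyte, 2 of 10 vascular and 2 of 9 microglia markers fell. Their part in the result, and that of the other values in which library 3 stood apart, was not tested.

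**Figure D5:**
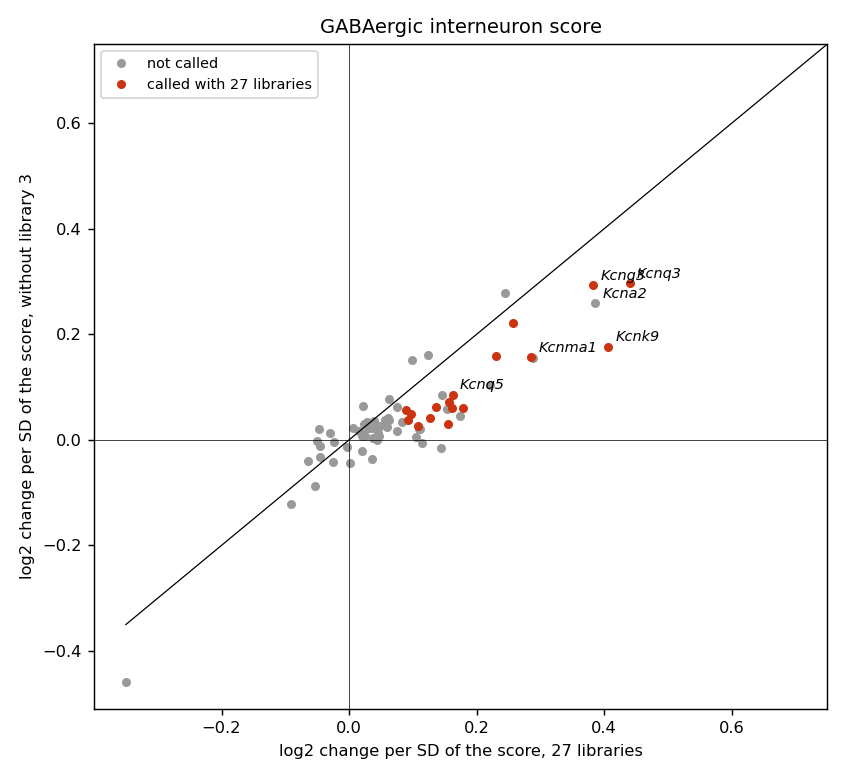
Log2 change per SD of the GABAergic interneuron score with 27 libraries (horizontal) and without library 3 (vertical) for 72 channel genes, with the line of equal change. The 17 genes called with 27 libraries (red) all lie below the line, and 0 are called without library 3.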

How the data were processed

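RNA of mPFC homogenates of 27 rats was sequenced as single reads, with each library from its own rat. The authors deposited raw counts, whole reads per gene and library without normalization. The submitters' processing notes name Trimmomatic, STAR and HTSeq. Versions, genome build and strandedness are not given in the sources used here, and the library kit is named differently by labels and methods. Row IDs were named from the RefSeq list of GRCr8 (28157 of 36865 rows, holding 99.7% of counts). All 27 columns were used.

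Counts were scaled by DESeq2 size factors (version 1.42.0) and given as log2(normalized count + 1). Spread was tested by a chi-square dispersion test on genes whose mean reached 10 reads. Library sets and scores were tested with edgeR's quasi-likelihood test (version 4.0.16, R 4.3.3) after TMM scaling and filterByExpr, with the DESeq2 Wald test as an alternative. The SEs given with edgeR changes are the absolute log2 change divided by the square root of the F statistic. They need not match the p-value exactly. Correlations used Python 3.11.15 with 100000 permutations. All p-values were adjusted by Benjamini-Hochberg over all genes tested, although the written plan had adjusted the correlations over each family. Calls were made at 0.05. The fits were tested on simulated data. The limit of 3 reads covers counting error only, while SDs and SEs include the spread between rats. Close paralogs and overlapping genes are uncertain.

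Members and lists were chosen with earlier results of these data known. Named genes are Kcna2, Kcnk9, Kcnk1, Kcnj4 and Kcns2, in each family the gene with the highest mean and those with the highest and lowest SD, Kcnj8, Kcnj10, Kcnj13 and Kcnj16, up to 10 genes called between sets and 5 per score and direction, the other Kcna and Kcnk genes, and the 5 genes most like Kcna2 and Kcnk9. Others were named after their values were seen. Some genes of these families are not reported here by name, though they enter the counts.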

Additional observations from a re-analysis of the deposited data

How the results depend on the processing

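The alternatives were TMM or total-count scaling, a pseudocount of 0.1, no filter, DESeq2, covariates, single library sets, and libraries left out; leaving out library 3 alone was chosen after seeing the data. Of the counts and SDs recomputed, 89 stayed close to the reported value and 9 moved; for the 20 single-gene results with a call, 105 recomputed values kept it and 15 lost it, all in the same direction. Among 13 single-gene results without a call, 74 recomputed values stayed without one in the same direction and 4 changed sign: without library 3, Kcnk9 on the oligodendrocyte score (0.060), Kcna2 on the vascular score (0.0047) and Kcnk9 on the vascular score (0.0099), and without libraries 12 and 20, Kcnk9 on the immediate early gene score (-0.0063). The 1 gene following the oligodendrocyte score became 0 without a filter, 0 without libraries 12 and 20, 0 without library 3 and 2 with the library set added. The 17 genes following the GABAergic interneuron score became 10 without libraries 12 and 20 (13.3%, against 8.28% of all genes) and 0 without library 3. The 2 Kcna genes related to Kcna2 became 1 with all genes with any count and 1 without libraries 12 and 20. The SD of Kcnk9 fell from 0.99 to 0.53 without library 3. The 13 genes that differed between library sets numbered 10 to 14 when each library was left out in turn; Kcnip2, Kcnd1, Kcnc1 and Kcnt2 lost their call in at least 1 other alternative. The cause of these moves was not tested beyond the libraries named. The number of rats, 27, and a floor of 2.01 to 5.19 normalized counts limit what can be seen for genes of few reads. No paired analysis was possible because all samples form 1 group.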
